A study of Mus musculus with 24 samples.

Results

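The BCL2 family decides at the mitochondrion whether a cell under stress lives or dies, and 10 of its genes are described here across 8 conditions. They were taken by name from a list of survival and death genes. These were the prosurvival genes Bcl2, Bcl2l1, Bcl2a1b and Mcl1, the BH3-only death genes Bcl2l11, Bmf, Bbc3, Pmaip1 and Bid, and the effector Bax. That rule names genes and uses no measured value, but the genes were chosen with earlier results of these data known. Counts of them beside the share of all tested genes are therefore descriptions of this list. All 10 were found in the count table of 54838 genes by their Ensembl identifiers, and all 10 were among the 13116 genes with enough counts to test.

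The cells were SIM-A9, a spontaneously immortalised line of mouse microglia, so all libraries come from 1 cell line. The control libraries are labelled as untreated. The other groups received LPS (bacterial lipopolysaccharide, a strong inflammatory stimulus), (GT)6 SWCNT (single-walled carbon nanotubes with a DNA coat), COOH SWCNT (carboxylated nanotubes), AAV (an adeno-associated virus), the calcium dye Fura-2, or one of the dyes Di-2-ANEPEQ and DiBASC2. All groups sat in 270 uL of medium without serum, and RNA was collected 2 h after a concentrated agent went in. The protocol text, shared by all libraries, gives the addition as 30 uL and does not say what control wells received. Concentrations were not given in the sources used here. The treatment field of the DiBASC2 libraries ends in a different number in each of them, and the count table writes the dye as DiSBAC2. The spelling of Di-2-ANEPEQ varies too. Each group had 3 libraries. Nothing in the labels says whether these came from separate cultures, so p-values measure only the spread between these libraries.

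In this pathway, prosurvival proteins hold the pore-forming effectors BAX and BAK in check on the outer mitochondrial membrane. BH3-only proteins sense stress and bind the prosurvival proteins, or the effectors themselves, so that the effectors open pores and cytochrome c leaks out to start the caspase cascade. In macrophages and microglia several of these genes are known targets of NF-kB, p53 or FOXO factors, and much of their control is also exerted on the proteins, which mRNA levels do not show.

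Total counts ran from 17364272 to 29259221 per library. The 12 microglia or macrophage markers were all above 1 CPM (counts made comparable between libraries by their totals and TMM factors) in control, and their sum was 2163 to 2217 CPM in control and 2050 to 2355 CPM in treated libraries. Aqp4, Aldh1l1, Snap25, Syt1, Mog, Col1a2, Dcn and Cldn5, markers of other brain and vessel cells, stayed under 0.1 CPM in every library. The summed endothelium list was 127.6 to 137.7 CPM in control, carried by Kdr, 90.8 to 102 CPM in LPS, 102 to 109 CPM in (GT)6 SWCNT and 119 to 142 CPM elsewhere. Sums over the astrocyte, neuron and fibroblast lists were at most 1.03 CPM, and that over the oligodendrocyte list was 3.41 to 5.80 CPM, mostly Mbp. The part of these genes' levels in the results was not tested. Index numbers of the libraries run in blocks of 3 per group, so library order and group cannot be told apart. In bulk RNA such as this, fewer cells of a type and less RNA per cell cannot be told apart, and gene counts do not separate isoforms.

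Over the 8 groups together, 9 of the 10 genes differed (edgeR's F test), all but Bax, where 56.7% of all tested genes did. Against control, LPS changed 5 of the 10 (Mcl1, Bcl2l1, Bcl2a1b and Bcl2l11 higher, Bmf lower) with 28.3% of all genes called. (GT)6 SWCNT changed 8 (Mcl1, Bcl2l1, Bcl2, Bcl2l11, Bbc3 and Pmaip1 higher, Bmf and Bid lower) with 20.4% called. COOH SWCNT changed 5 (Mcl1, Bcl2l1, Bcl2l11 and Pmaip1 higher, Bmf lower) with 20.0% called. DiBASC2 changed 3 (Bmf higher, Mcl1 and Bcl2l1 lower) with 5.47% called, and AAV changed 1 (Pmaip1, higher) with 5.00% called. Neither Fura-2 (0.252% called) nor Di-2-ANEPEQ (3.08% called) changed any of the 10 in edgeR's quasi-likelihood test. In each of them 1 of the 10, Bcl2a1b, had an unadjusted p under 0.05, and DESeq2 called 0. The median log2 fold change of the 10 genes was 0.13 for LPS, 0.37 for (GT)6 SWCNT, 0.16 for COOH SWCNT and −0.13 for DiBASC2, against −0.01, −0.02, 0.00 and 0.00 over all tested genes. These comparisons share the same 3 control libraries, so their values are given side by side and are not independent of each other.

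**Figure D1:**
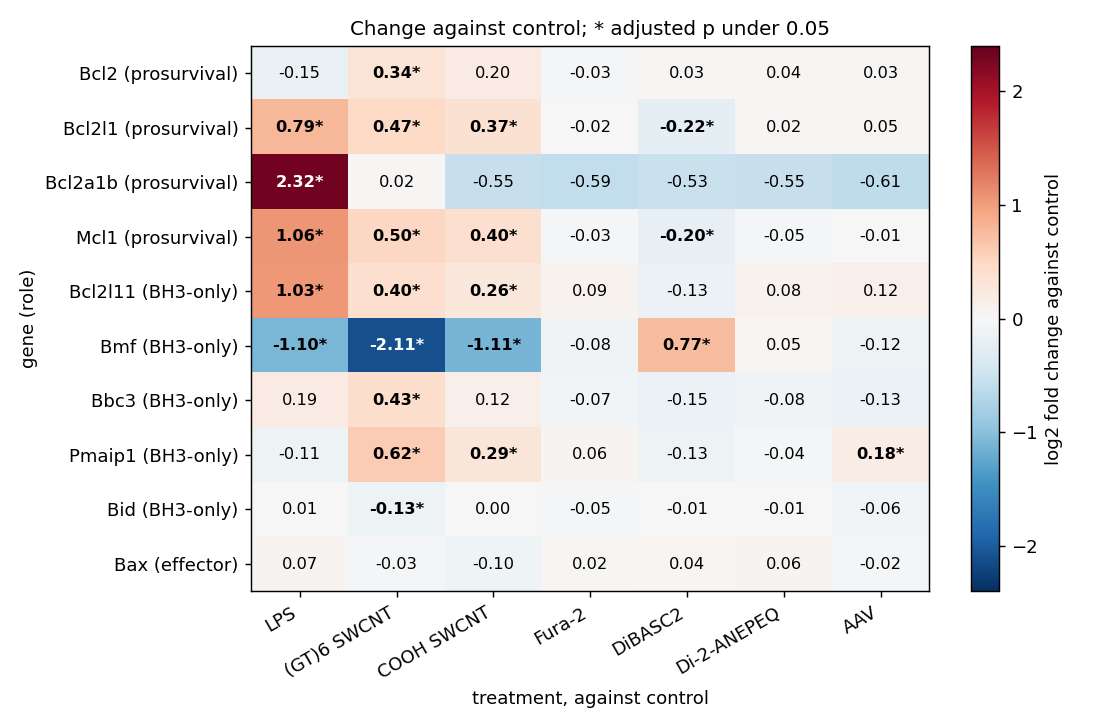
Log2 fold change of each of the 10 genes (rows, role in brackets) against control in the 7 treatments (columns). Red is higher and blue is lower than control, and an asterisk with bold type marks an adjusted p under 0.05. LPS and the nanotube groups hold most of the marked cells, and Bmf is the gene marked lower in all 3 of them.

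Mcl1 encodes a prosurvival protein that is made and destroyed quickly and is the main partner of NOXA. Its gene (ENSMUSG00000038612.16) lies on chromosome 3 from 95658788 to 95663176, plus strand, in GENCODE M21 on GRCm38, the source of all gene positions given here. Control libraries held 463, 457 and 455 CPM. LPS libraries held 950.2, 948 and 973 CPM, (GT)6 SWCNT libraries 652, 647 and 649 CPM, and COOH SWCNT libraries 608, 591 and 611 CPM. These 4 groups did not overlap, and their order was LPS, (GT)6 SWCNT, COOH SWCNT, control. Against control, the log2 fold change of Mcl1 was 1.06 ± 0.03 with LPS (SE; adjusted p 9.84e-26, edgeR's quasi-likelihood test with Benjamini-Hochberg adjustment over all 13116 genes, as for all adjusted p-values here), 0.50 ± 0.03 with (GT)6 SWCNT (3.06e-15) and 0.40 ± 0.03 with COOH SWCNT (6.36e-12). DiBASC2 lay at the other end. Its libraries held 394, 411 and 388 CPM, all below the control libraries, and Mcl1 fell by 0.20 ± 0.03 on the log2 scale (adjusted p 5.64e-05). AAV, Fura-2 and Di-2-ANEPEQ stood at 453.5 ± 7.87, 449.8 ± 3.44 and 442 ± 5.31 CPM (SD, n = 3). Neighbours among these 3 overlapped, and none of the 3 differed from control past the threshold. Mcl1 ranked 65 of all 13116 genes by the F statistic over the 8 groups.

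Bcl2l1 encodes BCL-XL, a longer-lived prosurvival protein (ENSMUSG00000007659.18, chromosome 2, 152780668 to 152831728, minus strand). Its control libraries held 49.3, 49.4 and 48.6 CPM. LPS libraries reached 80.4, 87.6 and 86.96 CPM, (GT)6 SWCNT libraries 68.2, 72.7 and 62.6 CPM, and COOH SWCNT libraries 63.5, 64.9 and 61.9 CPM. All 3 groups lay above control, while the (GT)6 and COOH SWCNT libraries overlapped each other. Bcl2l1 rose by 0.79 ± 0.06 with LPS (log2, SE; adjusted p 3.59e-14), 0.47 ± 0.06 with (GT)6 SWCNT (4.91e-08) and 0.37 ± 0.06 with COOH SWCNT (8.69e-06). In DiBASC2 it was at 39.6, 43.4 and 43.8 CPM, below every control library, and it fell by 0.22 ± 0.06 (adjusted p 0.023). That last call was lost on leaving out any 1 control library or DiBASC2 replicate 1 (adjusted p up to 0.125), and with upper-quartile scaling (0.0545).

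Bcl2, the founding prosurvival gene of the family (ENSMUSG00000057329.7, chromosome 1, 106538178 to 106714274, minus strand), followed another order. It was highest in (GT)6 SWCNT, with 21.4, 25.6 and 21.2 CPM, and lowest in LPS, with 17.6, 14.01 and 17.2 CPM, while control held 18.02, 19.1 and 16.9 CPM. Only the nanotube groups lay clear of the control libraries. Bcl2 rose in (GT)6 SWCNT by 0.34 ± 0.09 (log2, SE; adjusted p 0.00362), a call that ended without (GT)6 SWCNT replicate 2 (0.0672). In COOH SWCNT the value was 0.20 ± 0.09 (adjusted p 0.0929, and 0.0442 in a fit of these 2 groups alone) and in LPS it was −0.15 ± 0.09 (0.237). The antisense gene D630008O14Rik shares exon positions with Bcl2, and no library held more than 4 counts of it.

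Bcl2a1b encodes A1, a small prosurvival protein of white blood cells and a textbook NF-kB target. It is one of several near-identical mouse copies (ENSMUSG00000089929.1, chromosome 9, 89199209 to 89207827, plus strand). The bases just before 2 of the copies are printed to show how alike they are. They are from RefSeq on GRCm38.p6, cover only bases before the start that lie in no annotated exon, and read 5′ to 3′ along the gene's strand. The capitals mark a match to the letters TGANTCA, a loose form of the AP-1 motif in which N may be any base. In both copies that base is A.
Bcl2a1a, chr9:88956670-88956899, plus strand: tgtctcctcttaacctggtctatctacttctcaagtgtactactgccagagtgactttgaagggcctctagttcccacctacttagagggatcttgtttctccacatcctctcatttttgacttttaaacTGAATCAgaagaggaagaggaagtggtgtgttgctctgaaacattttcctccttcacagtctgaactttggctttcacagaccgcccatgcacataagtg
Bcl2a1b, chr9:89199023-89199208, plus strand: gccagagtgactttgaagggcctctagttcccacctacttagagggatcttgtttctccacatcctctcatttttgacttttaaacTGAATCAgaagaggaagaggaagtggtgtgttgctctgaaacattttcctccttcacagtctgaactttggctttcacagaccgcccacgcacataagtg
Over the 256 aligned bases of their full windows these copies share 254, or 99.2%, and each holds the AP-1 letters once, at −120 and −164 from its RefSeq start. The same letters stand in 7.81% of the 32851 windows of 300 bases (250 before and 50 after a start) for mouse genes. Within the transcripts, 41.1% of the 768 stretches of 50 bases in Bcl2a1b also occur in Bcl2a1a and 57.6% in Bcl2a1d. Reads from one copy could thus have been counted for another, and each copy's value is uncertain. Gm29094 shares 401 of the 817 exon bases of Bcl2a1b on the same strand and had no counts. That does not show whether reads in the shared bases were counted for Bcl2a1b or dropped, which was not tested.

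Bcl2a1b held 2.91, 3.49 and 2.94 CPM in control and 14.9, 15.9 and 16.1 CPM in LPS. It rose by 2.32 ± 0.16 on the log2 scale (SE; adjusted p 9.5e-15), the largest fold change among the 10 genes in any treatment against control. The other 6 treatments averaged 2.06 to 3.24 CPM, and none differed from control past the threshold. In AAV, Fura-2, Di-2-ANEPEQ, DiBASC2 and COOH SWCNT all libraries lay below all control libraries (log2 fold changes from −0.61 to −0.53, adjusted p from 0.0593 to 0.264). Without a filter on low counts the AAV and COOH SWCNT values passed (adjusted p 0.0331 and 0.0346), and COOH SWCNT also passed with DESeq2 (0.0433) and without COOH SWCNT replicate 3 (−0.80, 0.0121). Bcl2a1d also rose, from 4.55 ± 0.370 to 39.8 ± 4.08 CPM in LPS (SD, n = 3), which is 3.14 ± 0.12 on the log2 scale (adjusted p 3.49e-22). In (GT)6 SWCNT it rose to 6.67 ± 0.941 CPM (0.55 ± 0.15, adjusted p 0.00765), and this ended without (GT)6 SWCNT replicate 2 (0.0532). Bcl2a1a gave 4, 1 and 4 counts in control and 28, 32 and 53 in LPS (adjusted p 8.69e-08). With the 3 copies added into 1 feature, which does not depend on how reads were split among them (reads dropped in counting apart), the level went from 7.82 ± 0.230 to 57.3 ± 5.05 CPM in LPS, or by 2.88 ± 0.12 on the log2 scale (adjusted p 1.32e-21). The sum in (GT)6 SWCNT was 10.1 ± 1.68 CPM (0.36 ± 0.14, adjusted p 0.0746). For AAV, Fura-2, Di-2-ANEPEQ, DiBASC2 and COOH SWCNT the log2 fold changes of the sum ran from −0.342 to −0.195. None of these passed (adjusted p from 0.22 to 0.439), so the lower Bcl2a1b values there were not matched by a call on the sum.

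Bcl2l11 encodes BIM, a BH3-only protein that binds every prosurvival protein, and Bmf encodes a BH3-only protein known for sensing loss of attachment. Both are textbook FOXO targets, and in LPS and both nanotube groups one rose while the other fell. Their upstream bases are printed for that reason, by the same rules and from the same source. The capitals mark the reverse complement of the FOXO letters TGTTTAC.
Bcl2l11, chr2:128125788-128126037, plus strand: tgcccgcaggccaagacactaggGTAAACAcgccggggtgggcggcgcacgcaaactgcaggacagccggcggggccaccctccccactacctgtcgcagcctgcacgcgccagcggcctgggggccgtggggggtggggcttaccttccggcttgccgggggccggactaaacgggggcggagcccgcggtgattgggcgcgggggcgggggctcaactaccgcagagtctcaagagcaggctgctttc
Bmf, chr2:118549688-118549936, minus strand: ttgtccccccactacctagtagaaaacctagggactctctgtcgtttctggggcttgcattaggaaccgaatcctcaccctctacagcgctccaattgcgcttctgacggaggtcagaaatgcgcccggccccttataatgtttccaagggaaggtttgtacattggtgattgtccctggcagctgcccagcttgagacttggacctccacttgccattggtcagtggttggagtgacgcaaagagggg
RefSeq windows of 9 of the 10 genes, 16 in all, were searched on both strands. Pmaip1 was left out beforehand, so none of its bases were searched. The search covered the AP-1 letters, the FOXO letters, the cyclic AMP response element TGACGTCA and the NF-kB consensus. The FOXO letters stand at −227 from a Bcl2l11 start, and at −167 from a Bbc3 start. They are found in 3.65% of all windows. Bcl2l11 and Bmf also have other windows, not printed here, and none of those holds the FOXO letters. NF-kB matches, in 4.51% of all windows, lay before another Bbc3 start, where several overlap each other. A Bmf match began at a start itself. A Bcl2l1 match lay at −242 from a start, in a window whose first base is in an annotated exon. Whether these matches of Bmf and Bcl2l1 lie in exons was not checked. TGACGTCA (1.79% of all windows) was in none of the 16 windows searched. A missing match says only that these letters are not in these bases.

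Bcl2l11 (ENSMUSG00000027381.16, chromosome 2, 128126038 to 128162547, plus strand) held 48.9, 46.6 and 44.6 CPM in control. It reached 97.1, 96.9 and 93.1 CPM with LPS, 64.1, 62.8 and 57.2 CPM with (GT)6 SWCNT and 54.4, 59.8 and 53.8 CPM in COOH SWCNT. All libraries of these treatments were above all control libraries, although the nanotube groups overlapped each other. The rise was 1.03 ± 0.05 with LPS (log2, SE; adjusted p 3.4e-18), 0.40 ± 0.06 with (GT)6 SWCNT (7.54e-07) and 0.26 ± 0.06 with COOH SWCNT (0.000794). DiBASC2 libraries, at 40.9, 43.2 and 43.5 CPM, lay below every control library without passing the test (−0.13 ± 0.06, adjusted p 0.185).

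Bmf (ENSMUSG00000040093.15, chromosome 2, 118528757 to 118549687, minus strand) was at 3.90, 4.51 and 4.38 CPM in control. It held 2.01, 1.76 and 2.20 CPM in LPS, 0.780, 1.25 and 0.937 CPM in (GT)6 SWCNT and 1.86, 1.90 and 2.15 CPM in COOH SWCNT. The control libraries stood above all 9 of these, and the (GT)6 SWCNT libraries lay below the others. Bmf fell by 1.10 ± 0.19 with LPS (log2, SE; adjusted p 1.72e-05), by 2.11 ± 0.22 with (GT)6 SWCNT (8.63e-10) and by 1.11 ± 0.19 with COOH SWCNT (2.16e-05). In DiBASC2 its 3 libraries, at 6.90, 7.36 and 7.62 CPM, exceeded every other library, and the rise was 0.77 ± 0.15 (adjusted p 0.000976). Each of these 4 calls held with every single library left out. The values rest on 16 to 29 reads per library in (GT)6 SWCNT and on 71 to 106 in control. Fura-2, Di-2-ANEPEQ and AAV overlapped control, and Di-2-ANEPEQ was the most spread, from 3.12 to 5.49 CPM. On the scale of CPM per kb of exon, the ratio of Bcl2l11 to Bmf averaged 7.21 ± 0.861 for control (SD, n = 3), 31.8 ± 4.17 for LPS, 42.2 ± 10.6 for (GT)6 SWCNT, 18.7 ± 2.13 for COOH SWCNT and 3.82 ± 0.0750 for DiBASC2. The highest control ratio, 8.20, was below the lowest in LPS and the nanotube groups, 16.4.

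**Figure D2:**
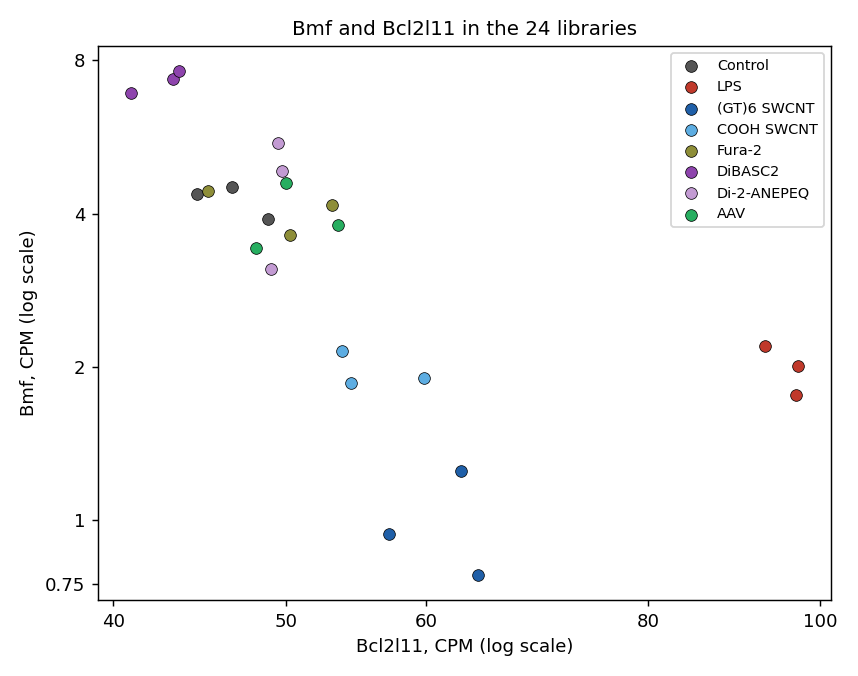
Bmf against Bcl2l11 in the 24 libraries, both in CPM on log axes, each point 1 library coloured by group. DiBASC2 sits at upper left with Bmf at 6.90 to 7.62 CPM, LPS at far right with Bcl2l11 at 93.1 to 97.1 CPM, and (GT)6 SWCNT at the bottom with Bmf at 0.780 to 1.25 CPM.

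Pmaip1 encodes NOXA, a BH3-only protein that binds mainly MCL1 (ENSMUSG00000024521.7, chromosome 18, 66458533 to 66465565, plus strand). It rose in the nanotube groups and not in LPS. Control libraries held 82.8, 80.4 and 81.4 CPM, (GT)6 SWCNT libraries 117, 128 and 129.6 CPM, and COOH SWCNT libraries 104, 102 and 93.3 CPM. LPS libraries, at 76.2, 73.4 and 76.3 CPM, were below every control library. The log2 fold change was 0.62 ± 0.05 in (GT)6 SWCNT (SE; adjusted p 3.1e-13), 0.29 ± 0.05 in COOH SWCNT (1.07e-05) and −0.11 ± 0.05 in LPS (0.0764, and 0.0116 at −0.16 with upper-quartile scaling). AAV libraries, at 96.2, 90.2 and 91.4 CPM, also lay above control (0.18 ± 0.05, adjusted p 0.0177). DiBASC2 libraries, at 70 to 78.45 CPM, lay below control without passing (−0.13 ± 0.05, adjusted p 0.111, and 0.0478 without DiBASC2 replicate 1). The AAV call was lost without AAV replicate 1 or without control replicate 2 or 3 (adjusted p up to 0.0715). The per-length ratio of Mcl1 to Pmaip1 averaged 4.49 ± 0.0403 for control (SD, n = 3), 10.2 ± 0.181 for LPS, 4.16 ± 0.247 for (GT)6 SWCNT, 4.83 ± 0.349 for COOH SWCNT and 3.92 ± 0.120 for AAV. It was thus highest in LPS, whose libraries lay far above the rest.

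Bbc3 encodes PUMA, a BH3-only protein known as a p53 target (ENSMUSG00000002083.13, chromosome 7, 16308393 to 16318205, plus strand). It was at 10.9, 12.9 and 9.72 CPM in control and 16.2, 15.9 and 13.0 CPM in (GT)6 SWCNT. These groups came close without overlapping, and Bbc3 rose by 0.43 ± 0.10 (log2, SE; adjusted p 0.00184). It did not pass in LPS (0.19 ± 0.11, adjusted p 0.204) or COOH SWCNT (0.12 ± 0.11, 0.459), where libraries overlapped control. Without control replicate 2 the LPS value was 0.33 and passed (adjusted p 0.0412). In AAV and the 3 dye groups Bbc3 averaged 10.1 to 10.7 CPM.

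Bid encodes a BH3-only protein that caspase-8 cuts into its active form, which ties death receptors to the mitochondrion (ENSMUSG00000004446.12, chromosome 6, 120891930 to 120916853, minus strand). Its levels moved little. Control libraries held 122, 122 and 120.2 CPM and (GT)6 SWCNT libraries 111, 107 and 115.5 CPM, all lower. It fell by 0.13 ± 0.04 there (log2, SE; adjusted p 0.012), but in 5 of the 6 fits with 1 library left out the call was lost (adjusted p up to 0.143), as it was without a filter on low counts (0.0739). The other groups averaged 116.8 to 122.5 CPM. Bid shares exon positions with Bcl2l13 on the opposite strand, and the strand setting of the counting was not given in the sources used here.

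Bax encodes the pore-forming effector (ENSMUSG00000003873.11, chromosome 7, 45461697 to 45466898, minus strand), and, like Bid, it stayed even: its highest group mean was 1.11 times its lowest. Its group means ran from 52.0 ± 4.38 CPM in COOH SWCNT to 57.97 ± 4.81 in LPS, with control at 55.5 ± 0.807 (SD, n = 3). No treatment differed from control past the threshold, and the test over the 8 groups gave an adjusted p of 0.153. Gm45808 shares 192 of the 1576 exon bases of Bax on the same strand and had no counts. Whether reads in the shared bases were counted for Bax or dropped was not tested. The other effector, Bak1, which is not one of the 10, was at 161 ± 4.997 CPM in control and 151 to 175 CPM in treated groups, and none of the 7 treatments passed against control in the fit of all libraries. Without COOH SWCNT replicate 3 it passed as higher in COOH SWCNT (0.15, adjusted p 0.0192; 0.10 and 0.105 in the full fit). With upper-quartile scaling it passed as lower in LPS (−0.13, adjusted p 0.0177; −0.09 and 0.141 with TMM).

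**Figure D3:**
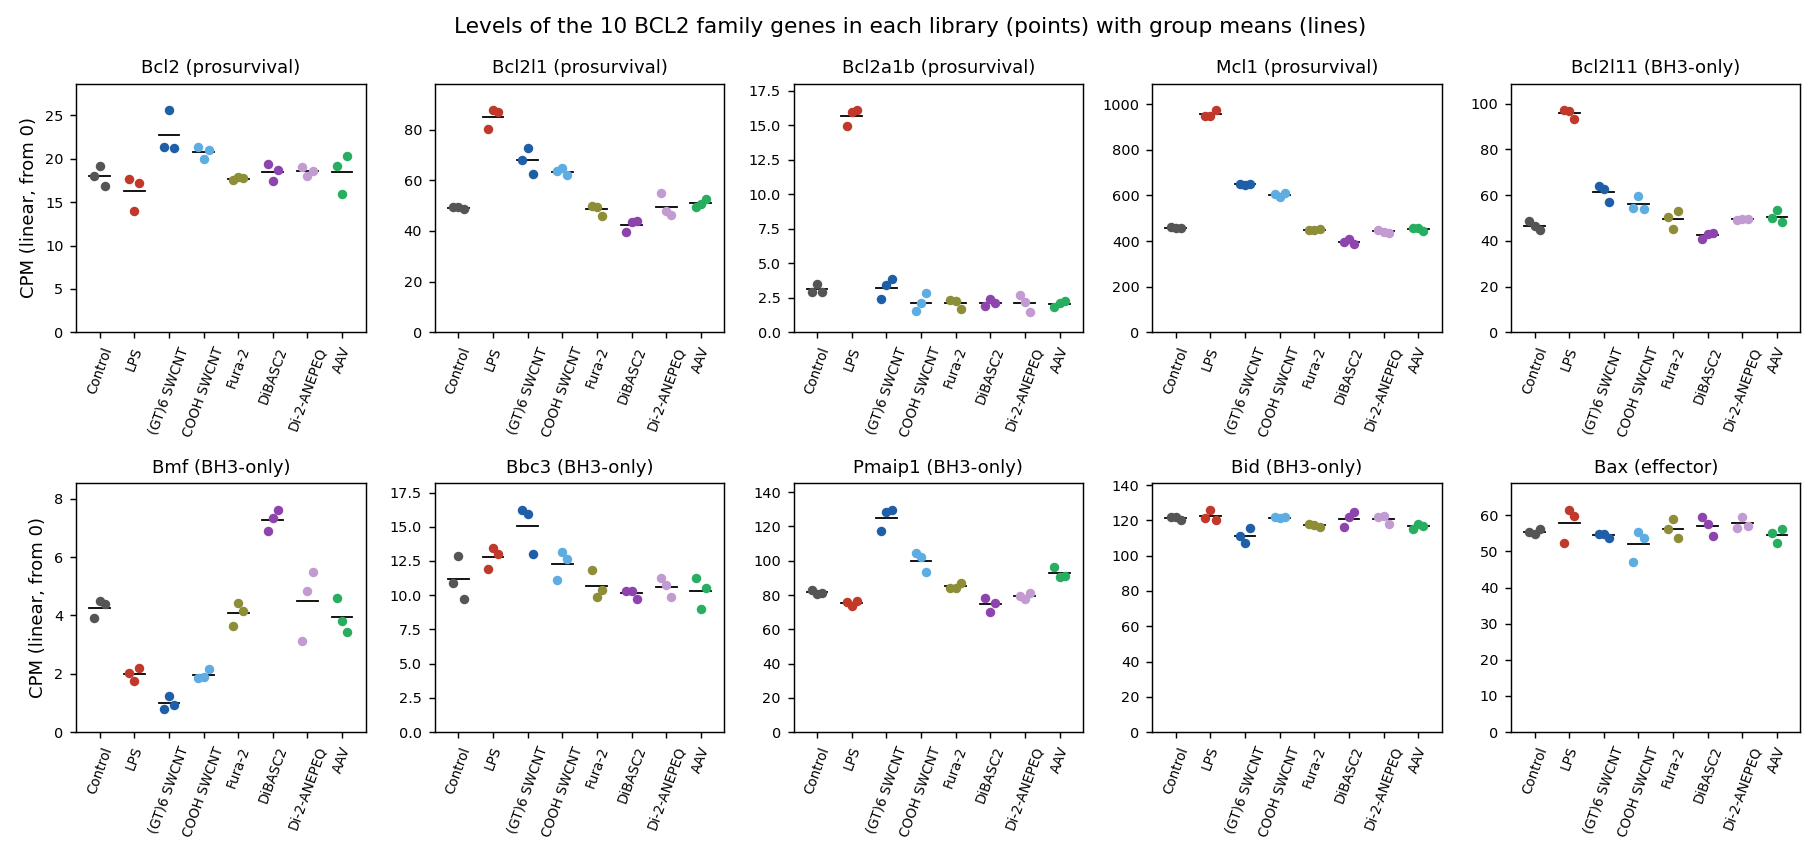
CPM on linear axes from 0 for each of the 10 genes, 1 panel per gene. Points are the 3 libraries of a group and lines are group means. Mcl1, Bcl2l1, Bcl2l11 and Bcl2a1b are highest in LPS, Pmaip1, Bbc3 and Bcl2 are highest in (GT)6 SWCNT, and Bmf is highest in DiBASC2.

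Genes were compared with each other only per length, as CPM per kb of the gene's merged exons. On that scale Mcl1 led in control at 134 ± 1.15 (SD, n = 3), ahead of Bax at 35.2 ± 0.512, Bid at 34.2 ± 0.323 and Pmaip1 at 29.8 ± 0.434. Bcl2l1 was at 10.7 ± 0.0986, Bcl2l11 at 5.82 ± 0.269, Bbc3 at 5.26 ± 0.757 and Bcl2a1b at 3.81 ± 0.400. Bcl2 at 1.97 ± 0.122 and Bmf at 0.812 ± 0.0610 were lowest. The libraries of Bcl2l11 and Bbc3 overlapped on this scale, and Bax and Bid stood close together without overlapping. Lengths come from an annotation that may not be the one used for counting, and transcripts may not use every exon.

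Mcl1 made up 87.7% to 90.4% of the per-length sum of the 4 listed prosurvival genes in the 8 group means, so that sum follows Mcl1. It was 150.5 ± 1.21 CPM per kb for control, 319.5 ± 5.03 for LPS, 211 ± 0.775 for (GT)6 SWCNT, 195 ± 3.17 for COOH SWCNT and 130.2 ± 3.80 for DiBASC2. The sum of the 5 BH3-only genes moved less, from 75.9 ± 1.15 for control to 80.4 ± 0.610 for LPS, 92.1 ± 1.74 for (GT)6 SWCNT and 84.0 ± 2.23 for COOH SWCNT. Within it Pmaip1 held 39.3% ± 0.787 in control and 49.7% ± 1.77 in (GT)6 SWCNT, while Bcl2l11 held 7.66% ± 0.260 in control and 14.8% ± 0.305 in LPS. Bmf was 1.07% ± 0.0867 of the sum in control, so its changes hardly entered it. The prosurvival to BH3-only ratio was 1.98 ± 0.0165 for control, 3.98 ± 0.0796 for LPS, 2.29 ± 0.0439 for (GT)6 SWCNT and 2.33 ± 0.0973 for COOH SWCNT. It was 1.93 ± 0.0269 for Fura-2, 1.93 ± 0.0347 for Di-2-ANEPEQ, 1.89 ± 0.0250 for AAV and 1.79 ± 0.0817 for DiBASC2. LPS stood above all other groups, the nanotube groups overlapped each other above control, and every library of the last 4 groups lay below the control libraries. These sums weigh mRNA per length and say nothing of protein. No test was run on them. They also leave out other tested family genes. In LPS Bcl2a1d held 46.16 CPM per kb, against 19.15 for Bcl2a1b and 18.53 for Bcl2l1. In control Bcl2a1d held 5.27 and Bcl2l2 5.2, both below Bcl2l1 at 10.71. Bad held 9.222 in control, above Bcl2l11 (5.818) and Bbc3 (5.256), while Bik held 0.3329. Bak1 held 66.97 there, against 35.22 for Bax. Adding Bcl2a1d and Bcl2l2 would lower the share of Mcl1. The ratio with all these genes was not computed.

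**Figure D4:**
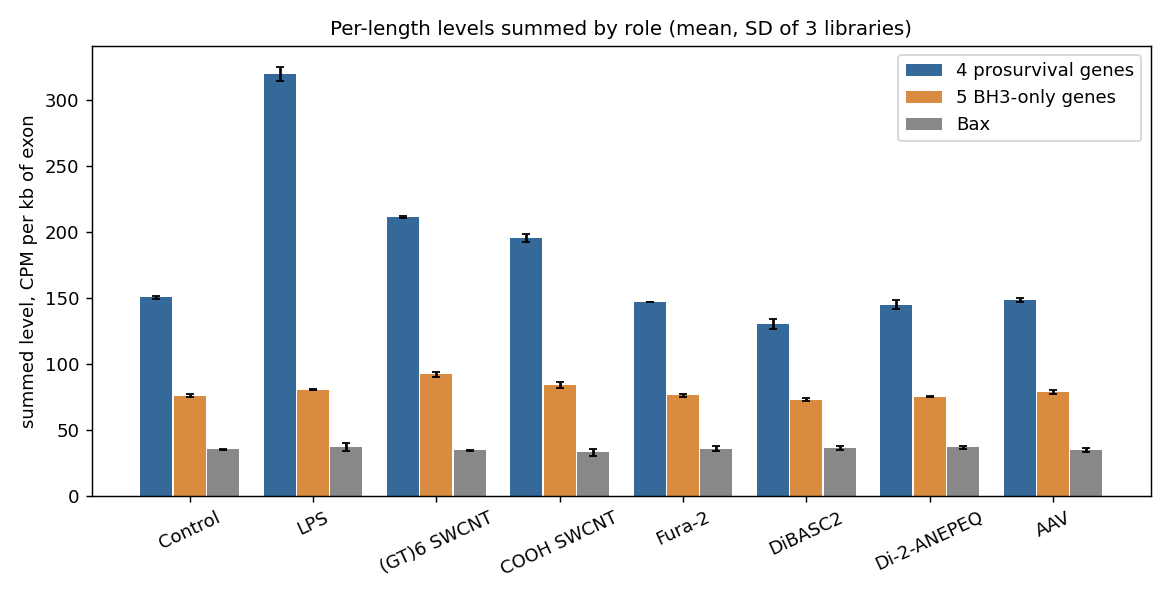
Per-length level (CPM per kb of exon, axis from 0) summed over the 4 listed prosurvival genes, over the 5 listed BH3-only genes, and for Bax, in each group. Bars are means and error bars SDs of 3 libraries. The prosurvival bar runs from 130.2 in DiBASC2 to 319.5 in LPS, while the BH3-only bar runs from 72.8 to 92.1.

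Direct comparisons asked how the treatments that moved these genes differed from one another. Against LPS, (GT)6 SWCNT differed in 8 of the 10 genes, where 21.6% of all tested genes did. Mcl1 (−0.56 ± 0.03, log2 fold change and SE), Bcl2l11 (−0.64 ± 0.05), Bcl2l1 (−0.32 ± 0.06), Bcl2a1b (−2.29 ± 0.16), Bmf (−1.005 ± 0.25) and Bid (−0.14 ± 0.04) were lower in (GT)6 SWCNT. Bcl2 (0.49 ± 0.09) and Pmaip1 (0.73 ± 0.05) were higher. Their adjusted p-values ran from 5.74e-17 for Mcl1 to 0.00527 for Bid, and the Bid call was lost without (GT)6 SWCNT replicate 2 or LPS replicate 2 (0.062 and 0.0513). Bbc3 missed the threshold (0.24 ± 0.10, adjusted p 0.0851), with a 95% interval of 0.04 to 0.45, and passed without (GT)6 SWCNT replicate 3 (0.0212) and with upper-quartile scaling (0.048).

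COOH SWCNT differed from LPS in 7 of the 10 genes, against 37.8% of all tested genes. Bcl2a1b (−2.87 ± 0.17), Bcl2l11 (−0.78 ± 0.05), Mcl1 (−0.67 ± 0.03) and Bcl2l1 (−0.42 ± 0.06) were lower in COOH SWCNT, and Pmaip1 (0.41 ± 0.05) and Bcl2 (0.36 ± 0.09) were higher. Bax was lower by a small step (−0.16 ± 0.06, adjusted p 0.0216) with overlapping libraries, and its call was lost in 3 of the 6 fits with 1 library left out (adjusted p up to 0.23), in a fit of these 2 groups alone (0.0709) and with upper-quartile scaling (0.119). Bmf averaged 1.97 ± 0.156 and 1.99 ± 0.221 CPM (SD, n = 3), with overlapping libraries (−0.01 ± 0.22, 95% interval −0.45 to 0.42).

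The nanotube groups differed from each other in 6 of the 10 genes, against 21.4% of all tested genes. Pmaip1 (0.32 ± 0.05, adjusted p 1.98e-06) and Bmf (−0.99 ± 0.25, 0.00308) differed most clearly, with Pmaip1 higher and Bmf lower in (GT)6 SWCNT. Mcl1 (0.11 ± 0.03, adjusted p 0.0151), Bbc3 (0.31 ± 0.10, 0.0231) and Bcl2a1b (0.57 ± 0.20, 0.0422) were higher in (GT)6 SWCNT, and Bid was lower (−0.13 ± 0.04, 0.0105). Libraries overlapped for Bbc3 and Bcl2a1b, which lost their calls in 3 and 4 of the 6 fits with 1 library left out (adjusted p up to 0.147 and 0.296), and Bcl2a1b also with upper-quartile scaling (0.0525) and in a fit of these 2 groups alone (0.0641). The sum of the 3 Bcl2a1 copies was higher in (GT)6 SWCNT (0.55 ± 0.14, adjusted p 0.00426). Bid lost its call without (GT)6 SWCNT replicate 2 (0.101), and Bid and Mcl1 lost theirs without a filter on low counts (0.0588 and 0.0597). Without (GT)6 SWCNT replicate 2 only 3 of the 10 genes passed. Bcl2l11 missed the threshold (0.14 ± 0.05, adjusted p 0.066, 95% interval 0.03 to 0.25) and passed without COOH SWCNT replicate 2 (0.0144) or (GT)6 SWCNT replicate 3 (0.0178), with DESeq2 size factors (0.0478) and in DESeq2 (0.0432).

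The dyes DiBASC2 and Di-2-ANEPEQ differed in 4 of the 10 genes, against 8.95% of all tested genes. Bmf was higher in DiBASC2 (0.72 ± 0.14, adjusted p 0.000871), and Mcl1 (−0.15 ± 0.03, 0.00163), Bcl2l1 (−0.24 ± 0.06, 0.00729) and Bcl2l11 (−0.22 ± 0.06, 0.00984) were lower. Without DiBASC2 replicate 1 the Bcl2l1 and Bcl2l11 calls were lost (adjusted p 0.074 and 0.0644), which left 2 of the 10 genes. Bcl2l1 also lost its call without Di-2-ANEPEQ replicate 1 (0.171).

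**Figure D5:**
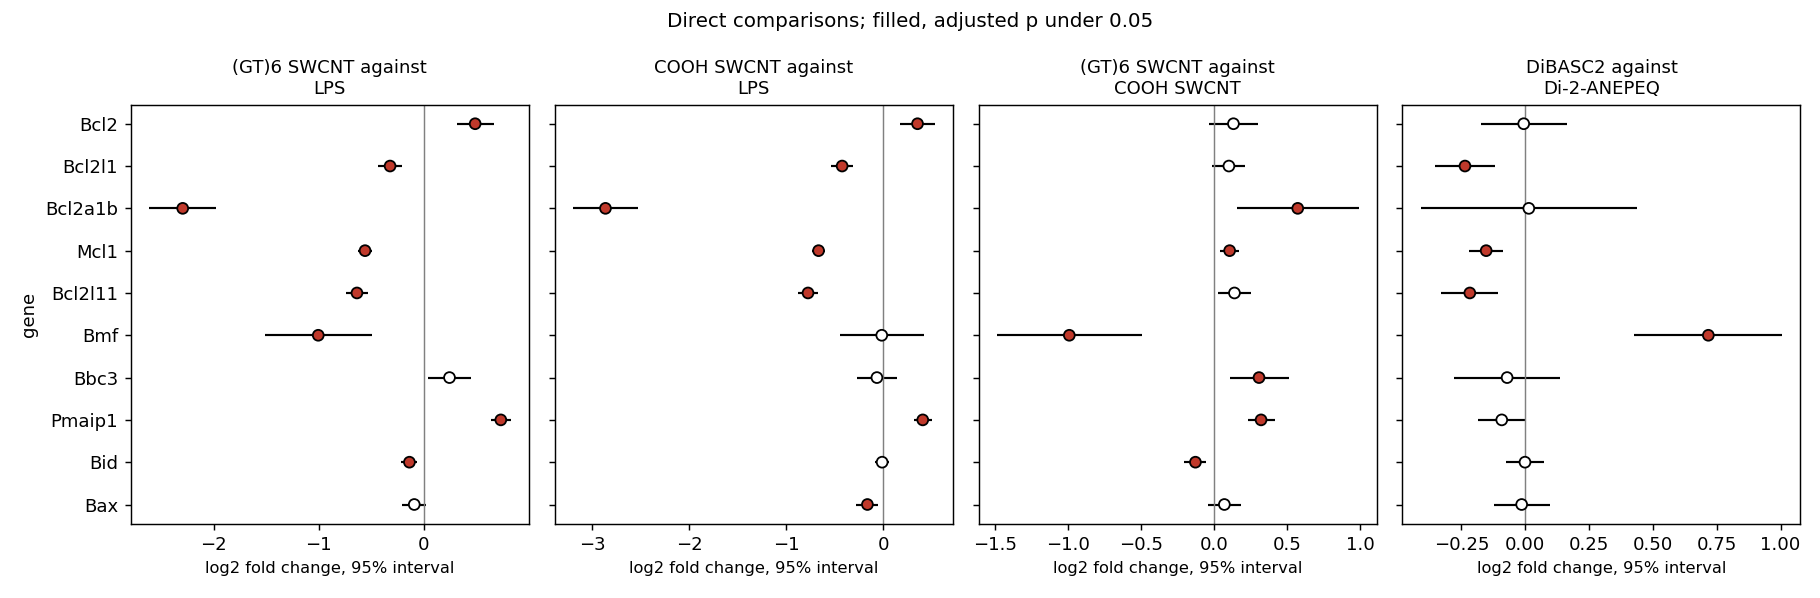
Log2 fold change (points) with 95% intervals (lines) of the 10 genes in 4 direct comparisons, 1 panel each with its own axis range. Filled points have an adjusted p under 0.05. Pmaip1 lies to the right of 0 and Mcl1 to the left in both comparisons with LPS, and Bmf lies to the left of 0 in (GT)6 against COOH SWCNT and to the right in DiBASC2 against Di-2-ANEPEQ.

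Each gene's pattern over the 24 libraries was set beside those of 9485 other genes with a mean of at least 5 CPM, by Pearson's r of log2 CPM. The libraries form 8 groups of 3 and share their scaling, so r here describes the group pattern and carries no test. Mcl1 was most like Irak2 (r = 0.996), Traf1 and Maff, an interleukin-1 receptor kinase, a TNF receptor adaptor and a small MAF factor. Bcl2l11 was most like Nfe2l2 (r = 0.988), Id3 and Cflar, and Bcl2l1 was most like Ccl4 (r = 0.983), Gdf15 and Vasp. Bcl2a1b was most like its own copy Bcl2a1d (r = 0.968), Mcoln2 and Casp4. Pmaip1 was most like Irf2bpl (r = 0.956), Gpr35 and Arhgap31. For Bmf the nearest were Klhl24 (r = 0.931), Phf20 and Enc1, and the most opposite was Il1rn (r = −0.976), the interleukin-1 receptor antagonist. The nearest genes to Bcl2, Bbc3, Bid and Bax were Thap2 (0.806), Insig2 (0.872), Sh3tc1 (0.834) and Cst3 (0.801), a looser likeness. Many other genes shared the closer patterns. An r above 0.9 was reached by 305 genes for Mcl1, 256 for Bcl2l11, 241 for Bcl2l1 and 120 for Bcl2a1b. For Pmaip1 and Bmf 18 and 8 genes did so.

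Of the 16 other family genes listed, 10 were tested. The untested Bcl2a1c, Bcl2l10, Bok, Hrk, Bcl2l14 and Bcl2l15 never exceeded 0.282 CPM. Against control, 4 of the 10 passed in LPS (Bcl2a1a, Bcl2a1d and Bcl2l2 higher, Bcl2l12 lower), 3 in (GT)6 SWCNT (Bcl2a1d, Bcl2l2 and Bik higher) and 1 in COOH SWCNT (Bcl2l2 higher). Over all tested genes 28.3%, 20.4% and 20.0% passed in these treatments, so 1 of 10 in COOH SWCNT was below that share and 3 of 10 in (GT)6 SWCNT not far from it. Bcl2l2, which encodes the prosurvival protein BCL-W, went from 23.2 ± 0.830 CPM in control (SD, n = 3) to 28.4 ± 0.788 in LPS (0.29 ± 0.06 on the log2 scale, SE; adjusted p 0.000109), and to 27 ± 0.0925 in (GT)6 SWCNT (0.22 ± 0.06, 0.00489). In COOH SWCNT it stood at 26.5 ± 1.06 CPM (0.19 ± 0.06, adjusted p 0.0143), a call lost without control replicate 2 (0.0725) or COOH SWCNT replicate 1 (0.0562), and without a filter on low counts (0.0769). Bik, a BH3-only gene at 0.530 ± 0.187 CPM in control, rose to 1.35 ± 0.433 in (GT)6 SWCNT (1.37 ± 0.38, adjusted p 0.00811), which was lost without control replicate 2 (0.0753) or (GT)6 SWCNT replicate 2 (0.0688). Bcl2l12 fell by 0.42 ± 0.13 in LPS (adjusted p 0.00955), which was lost without LPS replicate 1 (0.0579). None passed in AAV, Fura-2, Di-2-ANEPEQ or DiBASC2 with edgeR, where 3, 1, 0 and 2 had an unadjusted p under 0.05, and DESeq2 called 1, 0, 0 and 0. The median log2 fold change of the 10 was 0.11 in LPS and from −0.045 to 0.045 in the other 6 treatments. Bad, Bak1, Bcl2l13, Bnip3 and Bnip3l, which link the family to growth signals, pore formation and the removal of mitochondria, did not pass against control in any treatment in the fit of all libraries with edgeR, TMM and the filter on low counts. With 1 library left out, Bad passed as higher in LPS without LPS replicate 1 (0.25, adjusted p 0.0217, from 0.16 and 0.152). Bak1 passed as higher in COOH SWCNT without COOH SWCNT replicate 3 (0.15, adjusted p 0.0192), and Bnip3l as higher in AAV without control replicate 1 (0.17, 0.0423). Bnip3 passed as higher in COOH SWCNT without control replicate 1 (0.19, adjusted p 0.0118, from 0.12) or COOH SWCNT replicate 3 (0.16, 0.0338). It also passed there without a filter on low counts (0.12, adjusted p 0.0496), with upper-quartile scaling (0.13, 0.0489) and in a fit of these 2 groups alone (0.13, 0.0453). Bnip3l passed as higher in AAV with DESeq2 (0.14, adjusted p 0.0245) or its size factors (0.14, 0.0464), and in DiBASC2 with upper-quartile scaling (0.16, 0.0218).

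Between treatments, Bak1 was higher in COOH SWCNT than in LPS (0.19 ± 0.04 on the log2 scale, SE; adjusted p 0.000675) and, by a smaller margin, in (GT)6 SWCNT than in LPS (0.12 ± 0.04, 0.0461). The latter call was lost in 4 of the 6 fits with 1 library left out (adjusted p up to 0.3), in a fit of these 2 groups alone (0.0886) and with a replicate block (0.0613). Bad, which encodes a BH3-only protein held inactive by growth-factor signals, was lower in COOH SWCNT than in LPS (−0.33 ± 0.08, adjusted p 0.00115), although libraries overlapped. Bnip3, a mitochondrial protein tied to mitophagy, was higher in COOH SWCNT than in LPS (0.14 ± 0.05, adjusted p 0.0226, lost in 3 of the 6 fits with 1 library left out) and lower in (GT)6 than in COOH SWCNT (−0.20 ± 0.05, 0.00385).

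Most of the listed inhibitors of caspases were higher in LPS. Of 6 genes (Xiap, Birc2, Birc3, Birc5, Birc6 and Cflar), 4 passed in LPS, all higher, with a list median log2 fold change of 0.62 against −0.01 over all tested genes. Cflar encodes c-FLIP, which blocks caspase-8. It held 80.2, 74.0 and 77.5 CPM in control and 278, 259.6 and 269 CPM in LPS (1.80 ± 0.04 on the log2 scale, SE; adjusted p 1.51e-30). It rose to 124 ± 1.77 CPM in (GT)6 SWCNT (0.68 ± 0.04, adjusted p 1.66e-16) and, like Mcl1 and Bcl2l1, passed as lower in DiBASC2, at 59.0 ± 0.996 CPM. Birc3 and Birc2, which encode cIAP2 and cIAP1, ubiquitin ligases of TNF receptor complexes, rose in LPS from 71.8 ± 2.25 to 179 ± 4.33 CPM (1.32 ± 0.04, adjusted p 8.02e-25) and from 10.7 ± 0.299 to 20.9 ± 1.94 CPM (0.97 ± 0.09, 2.82e-11). In (GT)6 SWCNT 3 of the 6 passed, all higher. In COOH SWCNT 4 did, of which Birc5 was lower, and in DiBASC2 2 did, both lower. Over all tested genes 28.3% passed for LPS, 20.4% for (GT)6 SWCNT, 20.0% for COOH SWCNT and 5.47% for DiBASC2. None passed in Fura-2, Di-2-ANEPEQ or AAV with edgeR, where 0, 1 and 2 had an unadjusted p under 0.05 and DESeq2 called 0, 0 and 1.

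In the apoptosome and caspase list both directions occurred in LPS. Of its 11 genes, 5 passed in LPS (1 higher and 4 lower), 2 with (GT)6 SWCNT (Casp2 and Casp9, lower), 2 with COOH SWCNT (both lower) and 1 with Di-2-ANEPEQ (Cycs, lower), and the list's median for LPS was −0.02 on the log2 scale. Over all tested genes 28.3%, 20.4%, 20.0% and 3.08% passed in these 4 treatments, so the counts in the nanotube groups lay near the share of all genes. Casp9, the caspase that the apoptosome activates, fell from 53.7, 54.0 and 56.7 CPM in control to 34.9, 34.5 and 35.8 CPM in LPS (−0.64 ± 0.05, adjusted p 3.27e-13). None passed in Fura-2, DiBASC2 or AAV with edgeR, where 1, 1 and 3 had an unadjusted p under 0.05, and DESeq2 called 0 in each.

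Of the 10 genes of death receptor signalling 8 were tested, and 5 passed in LPS, with Fas and Traf2 higher and Casp8, Mlkl and Tnfrsf1a lower. Fas, the receptor for Fas ligand, went from 8.34 ± 0.611 CPM in control (SD, n = 3) to 24.6 ± 0.562 in LPS (log2 fold change 1.57 ± 0.11, SE; adjusted p 4.9e-15) and fell to 5.31 ± 0.670 in DiBASC2 (−0.65 ± 0.13, adjusted p 0.000821). Ripk1 passed as lower in (GT)6 SWCNT, and Casp8 and Ripk1 did in COOH SWCNT. Over all tested genes 28.3% passed for LPS, 20.4% for (GT)6 SWCNT, 20.0% for COOH SWCNT and 5.47% for DiBASC2, so 1 and 2 of 8 in the nanotube groups were below or near that share. None of the 8 passed in Fura-2, Di-2-ANEPEQ or AAV with edgeR, where 0, 0 and 1 had an unadjusted p under 0.05, and DESeq2 called 0 in each.

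The last list held 15 genes of p53 and FOXO signalling and of the turnover of MCL1, of which 12 were tested. In LPS 6 passed, 3 higher (Cdkn1a, Mdm2 and Trp53) and 3 lower (Foxo1, Foxo3 and Zmat3). In (GT)6 SWCNT 6 passed, 4 higher (Cdkn1a, Fbxw7, Mdm2 and Sesn2) and 2 lower (Foxo1 and Foxo3). Mdm2, the ubiquitin ligase of p53 and a p53 target itself, held 56.3, 50.9 and 52.7 CPM in control, 113.6, 114.1 and 114.4 CPM in LPS and 89.8, 86.5 and 85.4 CPM in (GT)6 SWCNT. Its log2 fold changes were 1.10 ± 0.05 (SE; adjusted p 2.86e-20) and 0.71 ± 0.05 (5.09e-14). Cdkn1a, which encodes the cell-cycle inhibitor p21 and is another p53 target, held 61.9 ± 2.73 CPM in control (SD, n = 3), 110.1 ± 5.13 CPM in LPS (0.83 ± 0.05, adjusted p 6.78e-16), 90.5 ± 2.399 CPM in (GT)6 SWCNT (0.55 ± 0.05, 1.57e-10) and 90.4 ± 6.77 CPM in COOH SWCNT (0.55 ± 0.05, 4.51e-10). Sesn2, a stress-response gene, was at 11.6 ± 1.28 CPM in control and 18.7 ± 3.23 CPM in (GT)6 SWCNT (0.70 ± 0.10, adjusted p 1.84e-06), but at 10.7 ± 0.654 CPM in LPS. Foxo1, a factor that drives Bcl2l11 and Bmf in other cells, fell from 15.8 ± 0.347 CPM in control to 11.04 ± 0.511 CPM in (GT)6 SWCNT (−0.52 ± 0.08, adjusted p 3.01e-06). Its level was 12.03 ± 0.119 CPM in LPS, 16.2 ± 0.908 in COOH SWCNT, 18.8 ± 1.42 in DiBASC2 and 18.8 ± 0.336 in AAV. Its part in the changes of Bcl2l11 and Bmf was not tested. In COOH SWCNT 3 of the 12 passed, all higher (Cdkn1a, Mdm2 and Sesn2), in DiBASC2 3 did (Foxo1 higher, Fbxw7 and Mdm2 lower), and in AAV 2 did (Foxo1 and Foxo3 higher). Over all tested genes 28.3% passed for LPS, 20.4% for (GT)6 SWCNT, 20.0% for COOH SWCNT, 5.47% for DiBASC2 and 5.00% for AAV, so 3 of 12 in COOH SWCNT was near that share. None passed in Fura-2 or Di-2-ANEPEQ with edgeR, where 2 and 1 had an unadjusted p under 0.05, and DESeq2 called 0 in each.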

How the data were processed

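Poly-A RNA of 24 libraries (8 groups of 3) was sequenced, and the authors deposited raw read counts per gene for 54838 Ensembl identifiers. STAR 2.5.4b and GRCm38.p6 are named per the submitters' processing notes. The annotation release, the counting tool, the strand setting and the treatment of reads with several matches were not given in the sources used here. With their version suffix 53947 identifiers matched GENCODE M21, without it 54809 did, and 29 did not match. Genes were kept by filterByExpr (13116 genes) and scaled with TMM. The model, which gives every group its own mean, took in all 24 libraries in edgeR 4.0.16 in R 4.3.3 (glmQLFit, glmQLFTest, two-sided, 16 residual degrees of freedom), with 11 contrasts and an F test over the 8 groups. Calls are at a Benjamini-Hochberg adjusted p under 0.05 over all tested genes of a contrast. The SE is the absolute log2 fold change divided by the square root of F. Depths of 17364272 to 29259221 counts and a biological coefficient of variation of 4.12% set the precision. Replicate libraries differed by more than counting noise. The code was tested on simulated data.

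The 10 genes and the lists of other family genes, caspases, caspase inhibitors, death receptor genes and p53, FOXO and MCL1-turnover genes were chosen with earlier results of these data known. All 10 genes and all tested family genes were named whatever their values. From each other list up to 4 genes per contrast were named, those with the largest change of at least 0.5 (log2) among called genes without overlap between libraries. Trp53inp1 met this rule on very few counts, and no value is given. Other list genes are named by their call alone. One list gene is not reported here by name. Promoter bases and motifs were read from RefSeq windows, 16 for 9 of the 10 genes, with Pmaip1 left out. The alternatives tried were upper-quartile factors, DESeq2 size factors, no filter on low counts, a minimum mean of 50 counts, a block for the replicate number, only the groups compared, the test of DESeq2 1.42.0, each library left out in turn and, chosen after seeing the data, the Bcl2a1 copies summed.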

Additional observations from a re-analysis of the deposited data

How the results depend on the processing

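Of the 110 results (10 genes in 11 contrasts), none changed direction past the threshold under any alternative. DESeq2 size factors changed 1 call, upper-quartile factors 5, no filter on low counts 5, a fit of only the compared groups 3, DESeq2 2 (4 had no adjusted p there) and a mean of at least 50 counts none. The median log2 fold change of all genes was at most 0.062 from 0 under each scaling. No filter on low counts gave 2 genes called in AAV in place of 1. With each library left out in turn, 625 of 660 results kept their side of the threshold, 29 calls were lost and 6 gained.

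Leaving out 1 library gave 5 to 6 of the 10 genes in LPS, 6 to 8 in (GT)6 SWCNT, 5 to 6 in COOH SWCNT, 2 to 3 in DiBASC2, 0 to 1 in AAV and 0 in Fura-2 and Di-2-ANEPEQ. It gave 7 to 9 in (GT)6 SWCNT against LPS, 6 to 7 in COOH SWCNT against LPS, 3 to 6 between the nanotube groups, 2 to 4 between the dyes and 8 to 10 over the 8 groups. Counts over all genes ranged from 157 to 769 in AAV, 0 to 106 in Fura-2, 120 to 418 in Di-2-ANEPEQ, 333 to 574 in DiBASC2 and 610 to 1284 between the dyes. Di-2-ANEPEQ gave 814 over all genes with only the compared groups, and Fura-2 gave 80 there, 86 with DESeq2 and 188 without the filter. The causes were not tested.

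The replicate number as a block left all 110 results on their side of the threshold, with 5 of the 10 genes in LPS and 8 in (GT)6 SWCNT. No pairing by number was visible in the values. Same-numbered libraries of different groups correlated at r from −0.104 to 0.0696 in 84 pairs, and 5 of 24 libraries correlated best with their own number. Whether same-numbered libraries shared a culture is not known from the labels. Bak1 in (GT)6 SWCNT against LPS, the only other family gene affected, went from an adjusted p of 0.0461 to 0.0613 with the block.

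Low counts limit Bmf, Bcl2a1a, Bcl2a1b and Bik, and 3 libraries per group limit every SD.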
